A study of Mus musculus with 8 samples.

Results

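The genes described here form the interleukin-2 (IL-2) receptor, JAK and STAT5 axis in activated mouse CD8 T cells: 10 of the 35072 gene rows of the deposited table, chosen by name. They are the receptor chains Il2ra, Il2rb and Il2rg, the kinases Jak1 and Jak3, the transcription factors Stat5a and Stat5b, and the STAT5 target genes Cish, Pim2 and Bcl2l1. All 10 passed the filter on low counts, which kept 13299 genes. The cells were naive wildtype CD8 T cells from spleen and lymph nodes. In both groups they were activated through CD3 and CD28 in the presence of IL-12 for 18 h and then kept for 24 h with PBS (control, 4 libraries) or 2 mM formate, a one-carbon metabolite (formate, 4 libraries). The protocols in the labels name no added IL-2, and do not state which libraries shared an animal or a culture. The p-values therefore rest on a spread among libraries that may be technical.

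IL-2 is made by T cells after activation and acts back on them. Its receptor joins the alpha chain (CD25), which raises the affinity for IL-2, to the beta chain, which is shared with the IL-15 receptor, and the common gamma chain, which is shared with the receptors for IL-4, IL-7, IL-9, IL-15 and IL-21. The beta chain carries JAK1 and the gamma chain JAK3; the kinases phosphorylate the receptor and STAT5, which enters the nucleus and turns on genes for survival, growth and feedback. In CD8 T cells this route supports expansion and effector differentiation.

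Values are CPM (counts scaled to a common library total) with TMM scaling factors, and changes are log2 differences, formate minus control. The labels give 1 factor, the treatment, and the unpaired edgeR fit uses that factor alone. The library titles carry codes that run in neighbours of 1 control and 1 formate library (1 and 2, 7 and 8, 10 and 11, 13 and 14). The labels do not say that neighbouring codes share a source. A second edgeR fit, which takes each pair as a block, is given beside the unpaired fit for each of the 10 genes. A gene is called at a Benjamini-Hochberg adjusted p under 0.05 over all 13299 genes.

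Libraries held 29361986 to 41393093 estimated counts. Those with codes 1 to 8 stood apart from those with codes 10 to 14: for 33.9% of tested genes, and for 6 of the 10 genes here, the CPM ranges of these 2 sets did not overlap. Cd8a, which defines CD8 T cells, was at 463 to 612 CPM. The 7 CD8 T cell markers summed to 1934 to 2466 CPM in controls and 1995 to 2193 with formate. The mitochondrially encoded share of counts was 0.414% to 0.566% in controls and 0.560% to 0.906% with formate, higher in 4 of 4 pairs; its part in the results below was not tested. In bulk RNA, fewer cells that express a gene and less RNA of it per cell cannot be told apart.

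In the unpaired fit none of the 10 genes was called, against 0.00752% of all tested genes (1 gene); none of the 10 had an unadjusted p under 0.05 (smallest 0.109), which 4.77% of all tested genes had, and DESeq2 called none of them either. With the pairs as a block, 4 of the 10 fell (Il2rb, Stat5a, Pim2 and Bcl2l1), none rose and 6 did not pass. In that fit 7.52% of all tested genes fell and 5.35% rose, 12.9% in all. That split turned with the scaling: 1000 genes fell and 711 rose with TMM, 539 fell and 1048 rose with library size only, and 736 fell and 832 rose with upper quartile scaling. Of the 10 genes 6 had an unadjusted p under 0.05 in the block fit, against 28.3% of all tested genes. The median change was -0.12 over the 10 genes and -0.0031 over all tested genes. The 4 called genes, Il2rg and Stat5b were lower with formate in 4 of 4 pairs, a pattern that 19.5% of tested genes showed. Cish was higher in 4 of 4 pairs, as were 16% of tested genes. For none of the 10 did the CPM ranges of control and formate separate, which held for 4.29% of tested genes (1.85% with formate lower and 2.44% with formate higher).

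**Figure D1:**
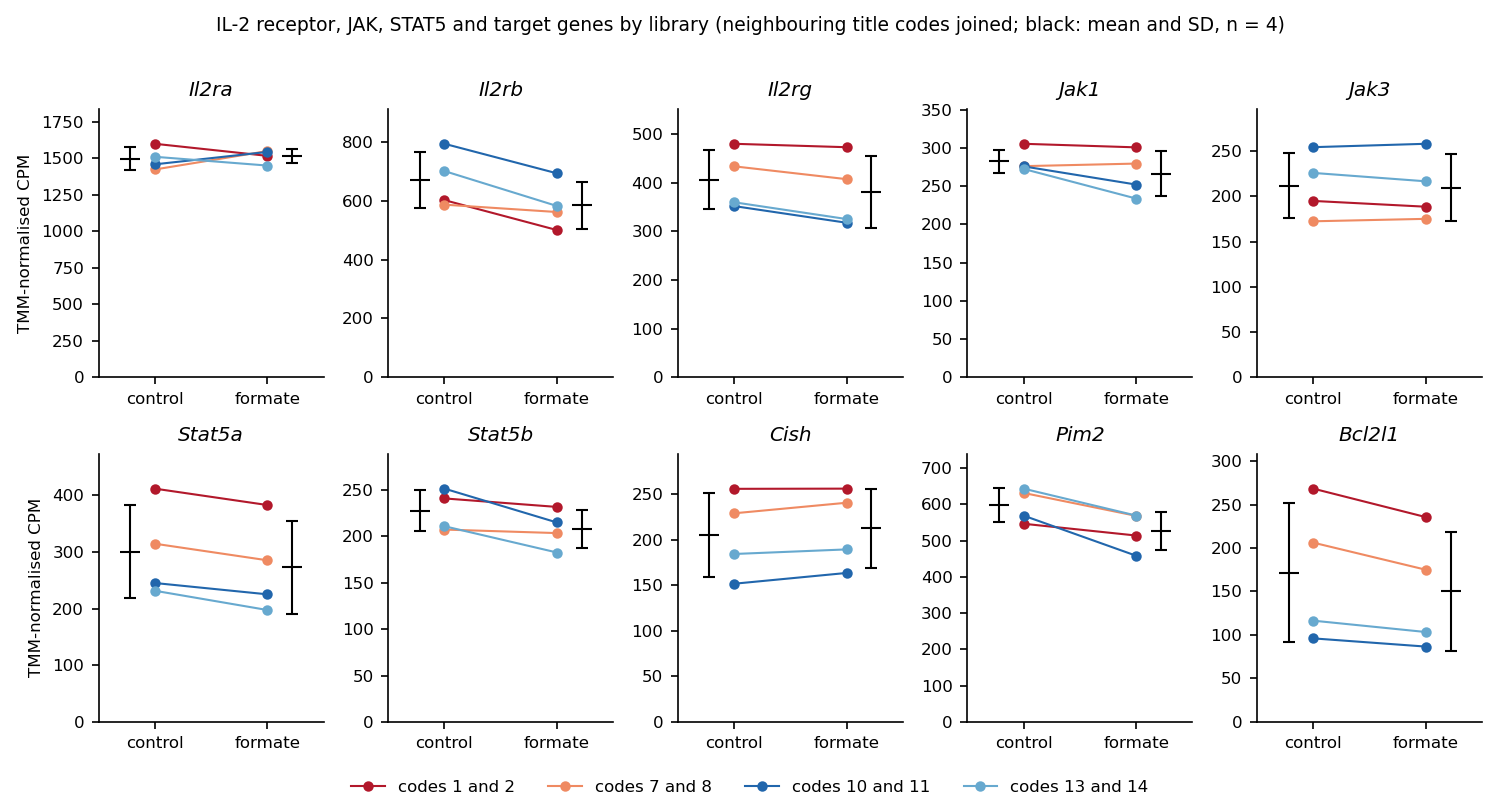
CPM of each gene (vertical axes from 0) in the control and formate libraries, with neighbouring title codes joined and the mean and SD of each group (n = 4) in black. Il2rb, Il2rg, Stat5a, Stat5b, Pim2 and Bcl2l1 are lower with formate in every pair, while Il2ra lies between 1422 and 1598 CPM and Cish is lower with formate in no pair.

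Il2ra encodes the alpha chain, CD25, an activation marker of T cells that is itself a STAT5 target, and lies on chromosome 2 from 11642807 to 11693193 (GRCm38). Its level was 1598, 1422, 1457 and 1509 CPM in the controls with codes 1, 7, 10 and 13 and 1515, 1548, 1542 and 1449 CPM in the formate libraries with codes 2, 8, 11 and 14. Its highest level was 1.12 times its lowest, the smallest range of the 10 genes, and the groups overlapped. The change was 0.016 unpaired (SE 0.075, edgeR adjusted p = 0.998), with a 95% interval from -0.15 to 0.19. With the block it was 0.017 (SE 0.050, edgeR adjusted p = 0.861), with a 95% interval from -0.090 to 0.12. Its sign turned with the block and GC offsets (-0.028).

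Il2rb encodes the beta chain, CD122, and lies on chromosome 15 from 78479256 to 78495271. Its level was 603, 587, 794 and 702 CPM in the controls with codes 1, 7, 10 and 13, and 501, 562, 694 and 583 CPM in the neighbouring formate libraries. Each formate library was below its neighbour, and within each group the libraries with codes 10 to 14 were above those with codes 1 to 8, so that the group ranges overlapped. The change was -0.20 in both fits, with an edgeR adjusted p of 0.998 unpaired (SE 0.13) and 0.0162 with the block (SE 0.049). The unpaired change was -0.10 without control replicate 1 (code 10) and -0.30 without formate replicate 1 (code 11). The step within the pair that holds control code 1 was -0.27, with control code 7 it was -0.063, with code 10 it was -0.20 and with code 13 it was -0.27. The block call was lost without codes 1 and 2 (-0.17, adjusted p = 0.133) or 13 and 14 (-0.17, 0.0777).

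Because Il2rb is also carried by natural killer cells and Il2ra by regulatory T cells, their markers were read beside them. Of the 6 markers of NK and innate lymphoid cells, the NK genes Ncr1, Klrb1c, Klra4 and Klra8 reached at most 0.142 CPM, and Klrb1c was at 0 in 7 of 8 libraries. The list summed to 10.9 to 33.5 CPM in controls and 15.5 to 39.4 with formate, higher in 4 of 4 pairs, nearly all of it Il1rl1. The 4 markers of CD4 and regulatory T cells summed to 13.7 to 23.9 CPM in controls and 13.3 to 23.9 with formate, with Foxp3 at 0.512 to 2.11 CPM. The sum was lower with formate in 4 of 4 pairs, by little: 16.1 and 14.5 CPM in codes 1 and 2, 13.7 and 13.3 in 7 and 8. It was 23.94 and 23.92 CPM in codes 10 and 11, and 16.0 and 14.9 in 13 and 14. The part of these markers in the Il2ra and Il2rb values was not tested.

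Il2rg encodes the common gamma chain and lies on the X chromosome from 101264378 to 101268255. It was at 481, 434, 352 and 360 CPM in the controls with codes 1, 7, 10 and 13 and at 474, 408, 318 and 326 CPM in their formate neighbours. The libraries with codes 1 to 8 were all above those with codes 10 to 14, whichever the treatment. The change was -0.094 unpaired (SE 0.16, edgeR adjusted p = 0.998) and -0.10 with the block (SE 0.045, adjusted p = 0.147), and did not pass in either fit.

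The balance of the chains was read as a ratio of counts within a library, which needs no scaling between libraries. Il2ra counts were 2.65, 2.42, 1.83 and 2.15 times those of Il2rb in the controls with codes 1, 7, 10 and 13, and 3.03, 2.75, 2.22 and 2.49 times in their formate neighbours. The log2 ratio was higher with formate in 4 of 4 pairs by nearly the same amount, 0.22 ± 0.042 (SD over 4 pairs). In the block fit Il2ra changed by 0.017 and Il2rb by -0.20, so this ratio is not a result separate from that of Il2rb. How often ratios of other genes move the same way in 4 of 4 pairs was not computed. Between the groups taken as unpaired it did not pass (exact two-sided permutation p = 0.2, adjusted p = 0.886 over 5 ratios, n = 4 against 4; the smallest possible p is 0.0286). Swaps within the pairs allow no p under 0.125. The difference between the unpaired groups was 0.12 without control replicate 1 (code 10) and 0.14 without formate replicate 3 (code 2). The ratio of Il2rb to Il2rg was lower with formate in 3 of 4 pairs, with a mean log2 difference of -0.097 (exact permutation p = 0.714, adjusted p = 0.886).

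**Figure D2:**
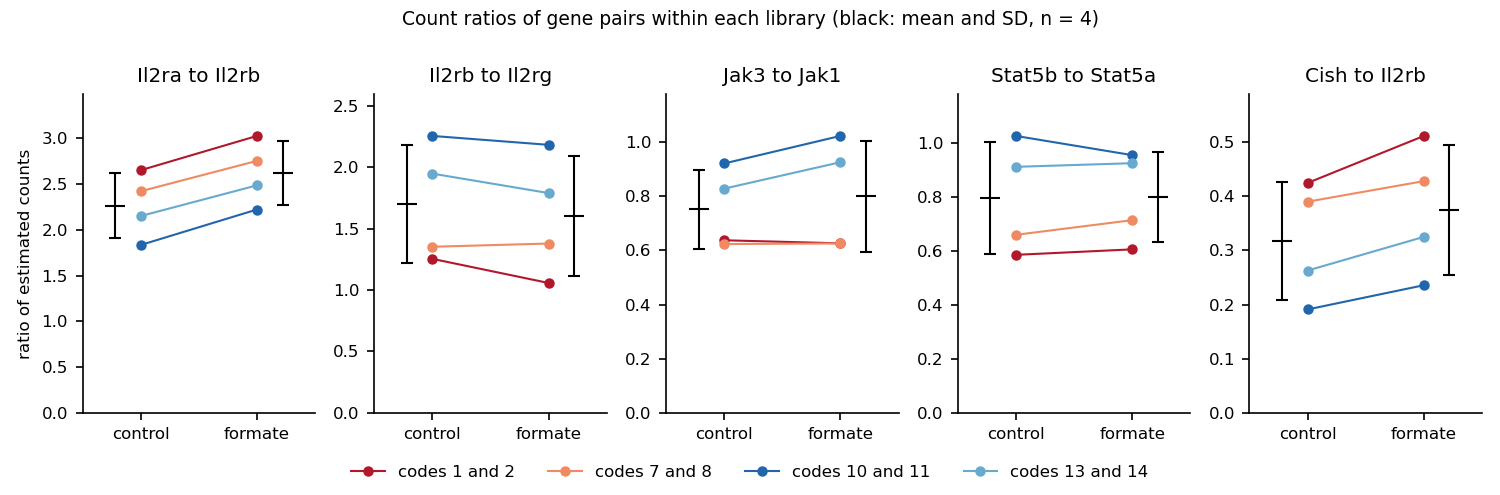
Ratio of estimated counts of 2 genes within each library (vertical axes from 0), with neighbouring title codes joined and the mean and SD of each group (n = 4) in black. The ratios of Il2ra to Il2rb and of Cish to Il2rb are higher with formate in every pair, and the other 3 ratios differ in direction between pairs.

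The receptor's kinases did not pass in either fit. Jak1, which is used by many cytokine receptors and lies on chromosome 4 from 101152367 to 101265282, was at 306, 276, 276 and 273 CPM in the controls with codes 1, 7, 10 and 13 and at 301, 280, 252 and 234 CPM in their formate neighbours. Its formate values were low in the libraries with codes 11 and 14 and level with control in the others. The change was -0.084 unpaired (SE 0.099, edgeR adjusted p = 0.998) and -0.089 with the block (SE 0.048, adjusted p = 0.241).

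Jak3, which pairs with the common gamma chain and lies on chromosome 8 from 71676296 to 71690575, was at 195, 172, 254 and 226 CPM in those controls and at 189, 175, 258 and 217 CPM in the formate neighbours. Its levels followed the set of libraries and not the treatment. The change was -0.016 unpaired (SE 0.16, edgeR adjusted p = 0.998), with a 95% interval from -0.37 to 0.34. With the block it was -0.016 (SE 0.043, edgeR adjusted p = 0.842), with a 95% interval from -0.11 to 0.075. Its sign turned under other scalings (0.020 with the block and library size only). The log2 ratio of Jak3 to Jak1 differed by 0.073 between the groups (exact permutation p = 0.686, adjusted p = 0.886).

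Of the STAT5 genes, Stat5a fell in the block fit and Stat5b did not pass. The paralogs lie side by side on chromosome 11, Stat5a from 100859351 to 100885169 and Stat5b from 100780731 to 100850724 on the other strand. Their coding sequences are similar, so reads may have been divided between transcripts by the estimate, which makes their values uncertain to that extent. Their counts in all 8 libraries were not whole numbers. That is not particular to these genes, since 56.7% of all values above 0 were fractional. Stat5a was at 411, 314, 245 and 231 CPM in the controls with codes 1, 7, 10 and 13 and at 382, 285, 225 and 197 CPM in the formate neighbours. The spread between libraries of a group was larger than the step within a pair, and every pair stepped down. The change was -0.15 with the block (SE 0.044, edgeR adjusted p = 0.0356), and -0.14 unpaired (SE 0.24, adjusted p = 0.998).

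The Stat5a call was lost with library size only (-0.11, adjusted p = 0.108), with upper quartile scaling (-0.13, 0.0587), with GC offsets (-0.12, 0.0819) and without the pairs of codes 1 and 2 (0.128), 7 and 8 (0.107) or 13 and 14 (0.142). Stat5b was at 241, 207, 251 and 211 CPM in controls and at 232, 203, 215 and 183 CPM in the formate neighbours. Its step was larger in the libraries with codes 10 to 14. The change was -0.13 unpaired (SE 0.11, edgeR adjusted p = 0.998) and -0.13 with the block (SE 0.048, adjusted p = 0.0851). DESeq2 with the block called it (adjusted p = 0.0483). The log2 ratio of Stat5b to Stat5a differed by 0.020 between groups (exact permutation p = 0.886, adjusted p = 0.886).

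Of the 3 STAT5 target genes, Pim2 and Bcl2l1 fell in the block fit and Cish did not pass. Cish encodes a SOCS-family protein that is induced by STAT5 and dampens cytokine and T cell receptor signalling; it lies on chromosome 9 from 107296026 to 107302784 (GENCODE). Its RefSeq promoter window (GRCm38.p6) holds the STAT5 motif TTCNNNGAA, which reads the same on both strands, a pair of times. The copies begin 1 and 12 bases from the RefSeq start, which lies downstream of the first base of the GENCODE gene, and are separated by 2 bases. Among all 32851 windows of 300 bases (250 before to 50 after a start), 8.30% hold the motif and 0.457% hold 2 or more copies. The sequence from 80 bases before to 20 bases after the start is shown, motif in capitals, beside the same stretch of Pim2, a target gene that fell in the block fit and whose only window has no match.
Cish, chr9:107296579-107296678, plus strand: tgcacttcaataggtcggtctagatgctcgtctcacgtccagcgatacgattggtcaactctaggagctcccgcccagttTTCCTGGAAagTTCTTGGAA
Pim2, chrX:7878226-7878325, plus strand: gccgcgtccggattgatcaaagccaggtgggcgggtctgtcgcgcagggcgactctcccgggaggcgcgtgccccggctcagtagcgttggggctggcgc

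Of the 10 genes 9 had a window (13 windows in all), and only Cish had a match; of 20 other STAT5 target genes 14 had a window and 4 a match (Socs3, Lta, Gzmb and Tnfrsf18). A match is a description of letters and not a binding site, and a window without one says nothing of STAT5 binding elsewhere.

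Cish was at 256, 229, 152 and 184 CPM in the controls with codes 1, 7, 10 and 13 and at 256, 241, 163 and 189 CPM in their formate neighbours. No formate library was below its neighbour, and the step was small beside the distance between the sets of libraries. The change was 0.050 unpaired (SE 0.20, edgeR adjusted p = 0.998), with a 95% interval from -0.39 to 0.49. With the block it was 0.054 (SE 0.043, edgeR adjusted p = 0.439), with a 95% interval from -0.037 to 0.15. Set against Il2rb, the count ratio was 0.425, 0.390, 0.191 and 0.263 in controls and 0.511, 0.428, 0.236 and 0.325 with formate. Its log2 value was higher in 4 of 4 pairs, by 0.25 ± 0.081 (SD over pairs; exact permutation p = 0.486 between unpaired groups, adjusted p = 0.886). The difference between the unpaired groups was 0.033 without control replicate 1 (code 10), 0.084 without formate replicate 3 (code 2) and 0.46 without formate replicate 1 (code 11). Il2rb, the divisor, changed by -0.20 in the block fit, so this ratio too is not separate from the result of Il2rb.

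Pim2 encodes a serine/threonine kinase that promotes survival and protein synthesis and lies on the X chromosome from 7878262 to 7883432. It was at 546, 631, 569 and 643 CPM in the controls with codes 1, 7, 10 and 13 and at 514, 568, 458 and 569 CPM in the formate neighbours. The lowest value was that of the formate library with code 11, whose share of mitochondrial counts was the highest of all, 0.906%. That library was also the lowest for Il2rg and Bcl2l1 and the highest for Jak3, and the part of this share was not tested. The change was -0.18 in both fits, with an edgeR adjusted p of 0.998 unpaired (SE 0.10) and 0.0229 with the block (SE 0.048). The call was lost with GC offsets (-0.14, adjusted p = 0.0679) and without any 1 pair (adjusted p between 0.0599 and 0.0789).

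Bcl2l1 encodes the survival protein BCL-XL, which holds back mitochondrial cell death, and lies on chromosome 2 from 152780668 to 152831728. Its level was 268, 206, 96.1 and 116 CPM in the controls with codes 1, 7, 10 and 13 and 236, 175, 86.6 and 103 CPM in the formate neighbours. It varied most of the 10 genes between libraries, with a highest level 3.10 times the lowest, and the libraries with codes 1 to 8 averaged 2.18 times those with codes 10 to 14 on the log2 scale. Formate was lower in every pair, with steps of -0.19, -0.24, -0.15 and -0.17. The change was -0.19 in both fits, with an edgeR adjusted p of 0.998 unpaired (SE 0.40) and 0.0121 with the block (SE 0.043). The block call was lost without codes 1 and 2 (-0.18, adjusted p = 0.0965) or 7 and 8 (-0.17, 0.0733).

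**Figure D3:**
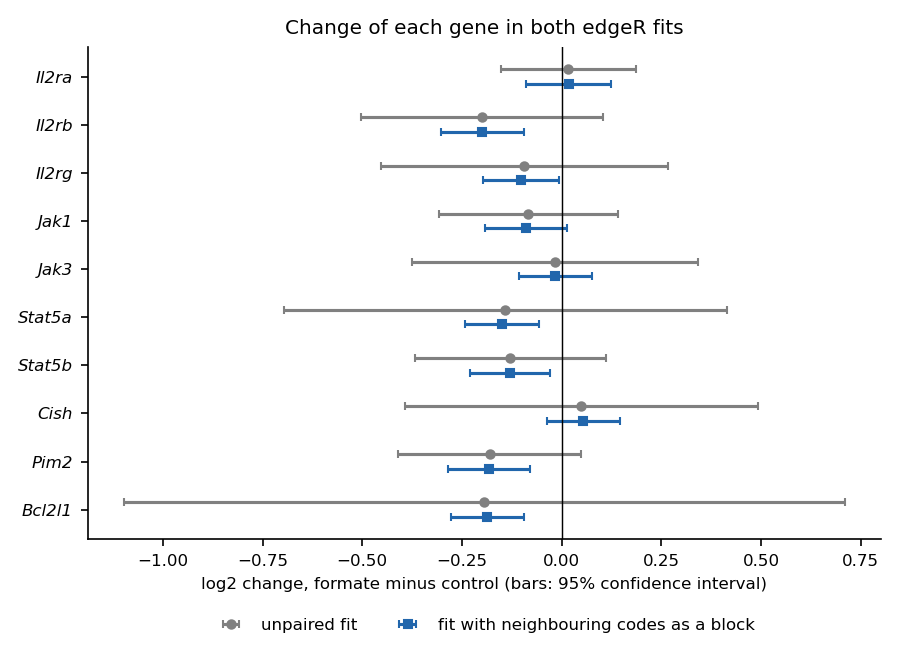
Log2 change (horizontal axis, formate minus control) of each gene with its 95% confidence interval in the unpaired edgeR fit (grey circles) and in the fit with neighbouring codes as a block (blue squares). Both fits give nearly the same change, such as -0.20 for Il2rb, and the intervals are narrower with the block.

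The sets of libraries differed more than the treatment groups for several of these genes. Stat5a was 1.54 times, Cish 1.43 times and Il2rg 1.32 times as high in the libraries with codes 1 to 8 as in those with codes 10 to 14, and Jak3 was 1.30 times as high in codes 10 to 14. Il2ra, Pim2 and Stat5b were within 1.03 times of each other between the sets. The sets are not groups of the study, and the labels do not say what separates them. The response to formate was compared between the sets by an interaction term. None of the 10 genes passed (edgeR adjusted p = 0.9999 for each), and none of the 13299 genes did. An unadjusted p under 0.05 was found for 154 genes, 1.16% of those tested, and for none of the 10. The term took no account of the pairs. Its SE was 0.15 to 0.26 for the 10 genes, against 0.043 to 0.050 in the block fit. A difference between the sets as large as the block changes could therefore have gone unseen, and none is excluded.

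Levels of different genes were compared per kb of transcript. Il2ra and Pim2 were the highest, at 552 ± 28.2 and 537 ± 42.4 CPM per kb in controls and 558 ± 16.8 and 474 ± 47.4 with formate (SD, n = 4). Il2ra was above Pim2 in 6 of 8 libraries, and their ranges overlapped. Il2rg (244 ± 36.8 in controls) and Il2rb (221 ± 31.7) followed and overlapped with each other, but both lay below Pim2 and above the remaining genes in all 8 libraries. Stat5a (80.4 ± 22), Cish (73.4 ± 16.6), Bcl2l1 (71.1 ± 33.2), Jak1 (57.6 ± 3.14) and Jak3 (52.9 ± 8.94) overlapped with their neighbours in this order. Stat5b was last at 44.3 ± 4.25 CPM per kb in controls and 40.5 ± 4.01 with formate.

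**Figure D4:**
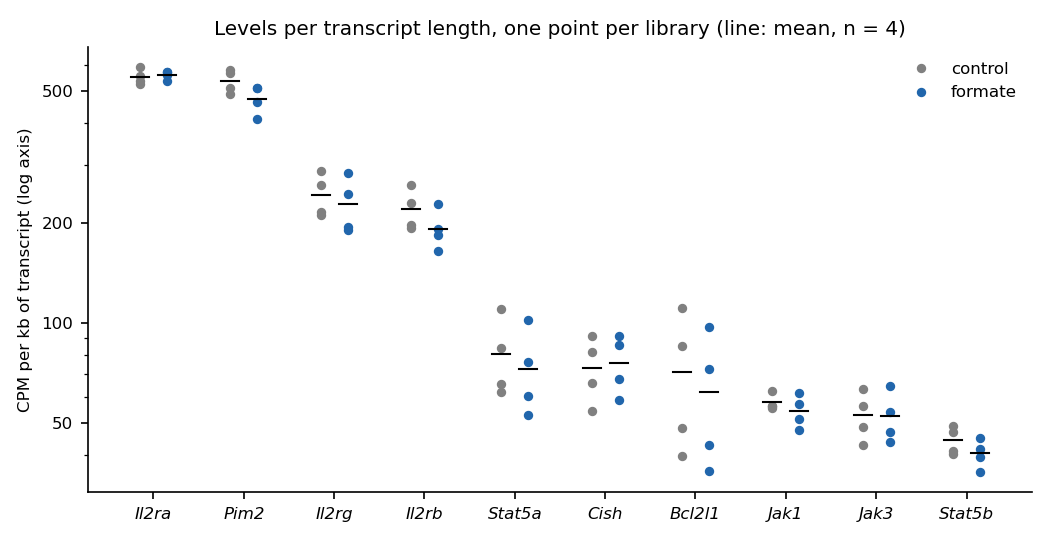
CPM per kb of transcript (log axis) of the 10 genes in each control (grey) and formate (blue) library, ordered by mean, with the mean of each group (n = 4) as a line. Il2ra and Pim2 lie at or above 412 in all libraries, Il2rg and Il2rb between 164 and 288, and the other 6 genes at or below 111.

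Genes around the axis were read from 8 lists. The unpaired edgeR fit called no gene of any of them. Only Il15ra, Stat4, Ccnd3 and Bcl2a1b had an unadjusted p under 0.05 in it (0.0382, 0.0487, 0.00176 and 0.00209), as did 4.77% of all tested genes. Group CPM ranges did not overlap for Il15ra, Ccnd3, Nras and Bcl2a1b, which held for 4.29% of all tested genes. Every call and median given for the lists is from the fit with codes as a block, in which 5.35% of all tested genes rose and 7.52% fell. Of the IL-2 family ligands 3 of 6 passed the low-count filter; Il4, Il7 and Il15 did not. Il21, a T cell cytokine that signals through the common gamma chain, rose in the block fit by 0.41 (9.44 ± 3.81 to 12.9 ± 6.20 CPM, edgeR adjusted p = 0.0107), none fell, and Il2 and Il9 did not pass (Il2 0.21, adjusted p = 0.222, higher in 3 of 4 pairs). Of the 4 tested partner receptors of the gamma chain 1 rose, none fell and 3 did not pass. Il15ra, which presents IL-15 to the beta and gamma chains, went from 16.6 ± 1.10 to 19.5 ± 1.62 CPM (0.23, adjusted p = 0.0335), and its group ranges did not overlap. Il4ra, Il7r and Il21r did not pass.

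Of 7 other JAK and STAT genes 3 fell in the block fit, where 7.52% of all tested genes fell, none rose and 4 did not pass, with a median of -0.15; the unpaired fit called 0. Stat4, which signals from the IL-12 receptor, had -0.28, Stat3 -0.19 and Stat6, which signals from the IL-4 receptor, -0.15, with edgeR adjusted p values of 0.00325, 0.0126 and 0.0489 in the block fit. Stat2 was at 0.19 (adjusted p = 0.0550). Of 20 other STAT5 target genes 1 fell in the block fit, none rose and 19 did not pass (median -0.072), a share no higher than the 7.52% of all tested genes, and the unpaired fit called 0. Ccnd3 (cyclin D3) went from 375 ± 5.86 to 302 ± 11.4 CPM with ranges that did not overlap (-0.31, adjusted p = 0.00173). Of 6 genes that STAT5 signalling is known to lower, such as Bcl6 and Il7r, none passed in the edgeR block fit and none in the unpaired fit (median -0.12 with the block). Ccr7 and Tcf7 had an unadjusted p under 0.05 with the block (0.0158 and 0.0326), as did 28.3% of all tested genes. None of the 6 had one in the unpaired fit. Of the other STAT5 targets Ccnd3, Ikzf4, Il10, Ccnd2 and Bcl2 had one with the block. The medians of targets and of lowered genes were both below the -0.0031 of all tested genes.

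Of 21 genes of the PI3K and RAS branches of the receptor 3 fell in the block fit, against 7.52% of all tested genes, none rose and 18 did not pass (median -0.052); the unpaired fit called 0. They were the MAP kinase kinases Map2k1 (-0.16) and Map2k2 (-0.19) and the MAP kinase Mapk3 (-0.23), with edgeR adjusted p values between 0.0126 and 0.0321. Of 12 phosphatases and other brakes 2 fell in the block fit, none rose and 10 did not pass (median -0.047), and the unpaired fit called 0: Ptpn1, a tyrosine phosphatase that acts on JAK kinases, had -0.21 (adjusted p = 0.00793) and Pias4 -0.22 (0.0296).

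Of 14 tested BCL2 family and PIM relatives 2 rose and 1 fell in the block fit, where 5.35% of all tested genes rose and 7.52% fell, and 11 did not pass (median -0.0049); the unpaired fit called 0. Bcl2a1b, a survival gene like Bcl2l1, went from 61.4 ± 8.29 to 83.8 ± 3.19 CPM (0.46, adjusted p = 0.00156, group ranges apart), and Bcl2a1d from 26.8 ± 6.74 to 35.4 ± 7.27 CPM (0.42, 0.00284). These are near-identical copies, so the division of reads between them is uncertain. Bcl2a1a had 0 to 6 counts in a library and was not tested. Bak1, which promotes cell death, fell by 0.18 (0.0167), and Bcl2 and Mcl1 did not pass (0.12 and -0.034).

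**Figure D5:**
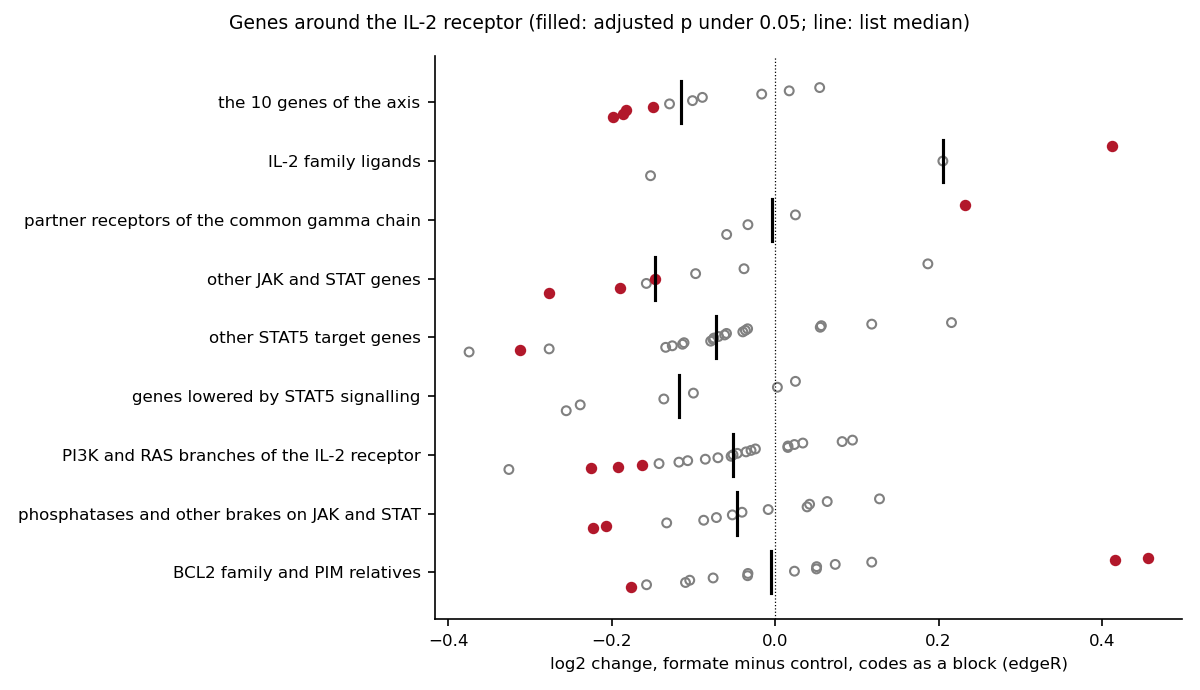
Log2 change in the fit with codes as a block (horizontal axis) of every tested gene of the axis and of the 8 lists around it (rows), with called genes filled and list medians as lines. Called genes lie below 0 except Il21, Il15ra, Bcl2a1b and Bcl2a1d.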

How the data were processed

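RNA of 4 control and 4 formate libraries was sequenced from a stranded mRNA kit, per the labels' protocols. The authors deposited 1 table of estimated counts per gene (expected counts, not normalised or pooled); 56.7% of values above 0 were fractional (more than 1e-06 from a whole number), and each was rounded to a whole number. The submitters' processing notes name Trimmomatic, kallisto and MultiQC, and as builds GRCm38 and mm10; the sources used here give no versions, transcriptome release or strand setting. Rows without a symbol (8884) held 1.22% to 1.65% of counts and were kept.

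Counts were fitted over all genes with edgeR 4.0.16 in R 4.3.3 (TMM, filterByExpr, robust quasi-likelihood test), and with DESeq2 1.42.0 as an alternative. The scripts were run on simulated counts in which neighbouring codes shared effects by construction and the sets of codes did not differ. That run cannot tell whether the real neighbours are pairs. The SE is the size of the log2 change over the square root of F. Log2 CPM used a prior count of 2. Groups came from the treatment label; replicates were numbered in accession order. Deviations from the group means correlated by 0.653 in codes 1 and 2, 0.656 in 10 and 11, 0.369 in 7 and 8 and 0.370 in 13 and 14. Non-neighbours correlated by 0.270 to 0.373 within a set of codes (1 to 8 or 10 to 14) and by -0.614 to -0.250 between the sets. The pairing rests on the title codes and not on a stated design. Libraries of a group differed beyond sampling noise, with a chi-square per degree of freedom of at least 22.0.

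Coordinates, GC content and transcript length (median over protein-coding transcripts of the basic set) are from GENCODE M21 (GRCm38), which holds 34581 of the identifiers; promoters are from RefSeq. GC offsets smooth each library's deviation against GC content. Exact permutation tests used all 70 assignments. Named genes are the 10 of the axis, up to 3 called genes per list and direction by smallest p, and the 3 most like Il2ra and Il2rb. The genes, lists, ratios and tests were chosen with earlier results of these data known. The lists are markers of 7 cell types, of which the B cell list summed to 15.2 to 30.1 CPM, the myeloid and dendritic list to 0.922 to 3.10, the erythroid and platelet list to at most 0.146 and the stromal list to 20.2 to 25.4 CPM, and the 8 lists around the axis. Most of the stromal sum was Pecam1, at 16.2 to 23.1 CPM, while Col1a1, Col1a2, Col3a1 and Pdgfra each reached at most 0.777 CPM. Depth limits low genes: Il7 and Il15 had at most 3 counts in a library.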

Additional observations from a re-analysis of the deposited data

Results flagged for a closer look

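In the controls 1 library stood apart for Jak1. The control with code 1 was at 306 CPM against 273 to 276 CPM in the other 3, and its gap to them was 0.888 of the group's whole range, above Dixon's 95% critical value for 4 samples. Of 30 groups of values looked at in this way (10 genes and 5 ratios in each treatment) this was the only one past that value, and chance flags about 1 in 20 groups. Without that control (replicate 3) the unpaired log2 change of Jak1 was -0.045, against -0.084 with all libraries.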

How the results depend on the processing

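Without a block, 1 gene of 13299 was called and none of the 10 genes of the axis, also under RLE, upper quartile or library size scaling, without the filter on low counts and with the set of codes as a term. DESeq2 called 21 genes. In the libraries with codes 1 to 8 alone and in those with codes 10 to 14 alone 0 genes were called, and 0 to 1 when 1 library was left out. With neighbouring codes as a replicate block, 1711 genes were called, 4 of them in the axis. With the block, library size only gave 1587 and 3, RLE 1738 and 4, DESeq2 1574 and 5, GC offsets 1416 and 2, and upper quartile scaling, which was added after seeing the data, 1568 and 3. Leaving out a pair left 337 and 0 (codes 1 and 2), 722 and 1 (7 and 8), 1371 and 3 (10 and 11) or 502 and 1 (13 and 14). Over these 6 block fits with all libraries, Il2rb and Bcl2l1 were called each time, Pim2 in 5 of 6 and Stat5a in 3 of 6. The block also took the lists around the axis from 0 called genes to 1 (ligands), 1 (partner receptors), 3 (JAK and STAT), 1 (STAT5 targets), 3 (PI3K and RAS), 2 (brakes) and 3 (BCL2 and PIM).

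Jak3 turned positive with upper quartile scaling (0.0065), library size only (0.022), and the block with library size only (0.020), with GC offsets (0.022) or with upper quartile scaling (0.0041); Il2ra turned negative with the block and GC offsets (-0.028). Leaving out a pair under the block gave -0.015 to 0.057 for Il2ra (-0.0045 without codes 10 and 11) and -0.029 to 0.0027 for Jak3. Without 1 library the unpaired change ran from -0.0098 to 0.048 for Il2ra, -0.13 to 0.090 for Jak3, -0.35 to 0.047 for Stat5a, -0.068 to 0.17 for Cish and -0.50 to 0.11 for Bcl2l1, and stayed below 0 for Il2rb (-0.30 to -0.10), Il2rg (-0.22 to -0.0048), Jak1 (-0.15 to -0.034), Stat5b (-0.19 to -0.074) and Pim2 (-0.23 to -0.12); Stat5a and Bcl2l1 turned positive only without control replicate 3 (code 1). The log2 ratio ran from 0.12 to 0.30 for Il2ra to Il2rb, 0.033 to 0.46 for Cish to Il2rb, -0.26 to 0.085 for Il2rb to Il2rg, -0.057 to 0.18 for Jak3 to Jak1 and -0.11 to 0.16 for Stat5b to Stat5a. Jak3 to Jak1 was -0.010 within codes 1 to 8, and Stat5b to Stat5a -0.041 within codes 10 to 14. The cause of these turns was not tested. Low counts kept Il4, Il7, Il15, Il9r, Bcl2a1a and Bok from being tested, and Il9, which was tested, was at 0.0332 to 2.76 CPM, with an unpaired SE of 1.24.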

Other observations

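The genes whose log2 CPM followed that of Il2rb most closely over the 8 libraries, out of 9164 genes whose mean reached 5 CPM, were Cln6, Praf2 and Ccdc40 (Pearson r of 0.989, 0.987 and 0.987). For Il2ra they were Zbed3, Lpp and Cipc (0.933, 0.910 and 0.906). These values describe 8 libraries that share the split between title codes 1 to 8 and 10 to 14, and no test was made of them. Of the 6 genes, Ccdc40 fell in the fit with codes as a block (-0.40, edgeR adjusted p = 0.0159), and the other 5 did not pass.

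Transcripts of IL-7 and IL-15, which signal through the same gamma chain and are made mainly by stromal and myeloid cells, were nearly absent from these cultures: Il7 had 0 to 3 counts and Il15 0 to 3 counts in a library. Il2 itself was at 13.1 ± 10.8 CPM in controls and 14.9 ± 12.9 with formate (SD, n = 4). It was at 17.0 to 32.1 CPM in the libraries with codes 1 to 8 and at 2.02 to 7.07 CPM in those with codes 10 to 14. The receptor chains were at 318 CPM or more in every library, a comparison that is not scaled to transcript length.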
